A study of Mus musculus with 10 samples.

Results

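The 10 genes described here encode the machinery by which antigen-presenting cells show peptides on MHC class II molecules. They were taken by symbol from the mm10 transcript table. They are the class II chains H2-Aa, H2-Ab1 and H2-Eb1, the invariant chain Cd74, the peptide exchange factors H2-DMa, H2-DMb1 and H2-DMb2, their inhibitors H2-Oa and H2-Ob, and the transcriptional co-activator Ciita. All 10 had rows, 15 transcripts in all, among the 24541 gene symbols of the table, and all 10 passed the filter on low counts that left 15123 genes. The cells came from kidneys of C57BL/6 mice aged 12 to 16 weeks and were captured on magnetic beads against F4/80, the product of Adgre1. The mutant group was 4 libraries of mice that carry 1 copy of the C105F allele (heterozygotes) of Umod (uromodulin, a protein of kidney tubules), which was introduced into C57BL/6J embryos by genome editing. The wild-type group was 6 libraries from littermates without the edit. The edited allele is in the germline and not limited to a cell type, and digestion, removal of dead cells and bead capture were described once for both groups.

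MHC class II molecules are pairs of an alpha and a beta chain that bind peptides in endosomes and present them to CD4 T cells. New chains are held by the invariant chain, a fragment of which stays in the groove until H2-DM removes it, and H2-O restrains H2-DM in B cells and in some dendritic cells. Transcription of the class II chains depends largely on the co-activator encoded by Ciita. That co-activator docks on factors bound to the X and Y boxes of class II promoters. In the kidney, resident macrophages and dendritic cells carry class II at high levels. C57BL/6 mice make no I-E molecule because the gene of its alpha chain is defective, although they transcribe H2-Eb1, the beta chain of I-E.

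Of the 10 genes, 8 lie on chromosome 17, in or beside the class II region. Their mm10 spans in the table were chr17:34282751-34287771 for H2-Aa, chr17:34263227-34269418 for H2-Ab1, chr17:34305867-34316674 for H2-Eb1 and chr17:34122832-34139101 for H2-DMa. H2-DMb1 spans chr17:34153191-34160229, H2-DMb2 chr17:34145416-34151095, H2-Oa chr17:34092379-34095234 and H2-Ob chr17:34238905-34245908. Ciita spans chr16:10480072-10527640. H2-DMb1 and H2-DMb2 are neighbouring paralogs, and the labels, which name a directional kit, do not say how reads were shared between similar genes or whether strand was used in counting, so their separate values are less certain.

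The promoters are shown because these genes are known for a shared promoter layout and their RNAs moved together. RefSeq windows of 250 bases before to 50 after a start, on GRCm38.p6, were given for 7 of the 10 genes, in 8 windows. H2-Ab1, Cd74 and Ciita have no entry. The stretches run from 60 bases before a Y-box core (GATTGG) and are on the strand of the gene, with that core and the letters ATGATG, as found in X boxes, in capitals. They are chr17:34305747-34305832 (plus strand) for H2-Eb1, chr17:34238787-34238872 (plus) for H2-Ob, chr17:34153069-34153154 (plus) for H2-DMb1, chr17:34145098-34145183 (plus) for H2-DMb2, chr17:34287847-34287932 (minus) for H2-Aa and chr17:34092275-34092360 (plus) for H2-Oa.
H2-Eb1: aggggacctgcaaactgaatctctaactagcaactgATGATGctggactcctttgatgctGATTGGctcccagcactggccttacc
H2-Ob: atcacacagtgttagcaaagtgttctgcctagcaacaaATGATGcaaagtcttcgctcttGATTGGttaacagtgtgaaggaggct
H2-DMb1: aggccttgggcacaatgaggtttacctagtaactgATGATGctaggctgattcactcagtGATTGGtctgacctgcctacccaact
H2-DMb2: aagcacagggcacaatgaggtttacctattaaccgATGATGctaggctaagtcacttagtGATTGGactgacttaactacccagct
H2-Aa: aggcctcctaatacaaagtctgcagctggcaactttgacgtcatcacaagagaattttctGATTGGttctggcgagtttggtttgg
H2-Oa: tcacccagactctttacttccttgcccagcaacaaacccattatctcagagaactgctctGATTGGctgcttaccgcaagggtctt
The core GATTGG, searched on both strands, was in 7 of the 8 windows, against 16.1% of all 32851 windows. In the 6 stretches above it began between 44 and 91 bases before the start. H2-DMa had it in the window of 1 start only, 199 bases before that start. The motif ATGATG, also searched on both strands and not overlapping the core, was in 4 of the 8, against 11.2% of all windows. In H2-Eb1, H2-Ob, H2-DMb1 and H2-DMb2 it lay before the Y-box core with 18, 16, 19 and 19 bases between them. Over all windows this order, with 10 to 30 bases between, occurred in 24 of 32851 (0.0731%), 4 of which are these genes. The letters and the gap were chosen after the sequences had been read, so these shares describe the windows and test nothing. The lack of a match in H2-Aa, H2-Oa and H2-DMa says only that these letters are not in those windows.

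Class II RNA differed widely between libraries of the same group, and it followed Adgre1. The libraries held 45380415 to 73643200 estimated counts, so depth, with a ratio of 1.62, was far more even than the class II levels. Together the 10 genes took between 0.0983% of counts in wild-type replicate 1 and 3.06% in mutant replicate 5. The levels below are CPM, counts scaled to library size with TMM factors. Adgre1 was at 58.2, 58.6, 229 and 819 CPM in mutant replicates 1, 2, 4 and 5, and at 14.0 (lowest), 82.8 (median) and 406 (highest) CPM in wild type. In such bulk libraries fewer cells of a type cannot be told apart from less RNA per cell. Tubule markers, 8 of 8 tested, summed to 27455 to 61894 CPM in mutants and 34785 to 79948 CPM in wild type. Macrophage markers, 15 of 15 tested, summed to 914 to 10838 CPM in mutants and 323 to 4724 CPM in wild type. The tubule sum was mostly 1 gene, Kap, which averaged 31747.5 CPM, and Slc34a1, a phosphate carrier of proximal tubules, averaged 5562 CPM in these libraries labelled as macrophages. Umod, the edited gene, was at 1004 to 4331 CPM in mutants and at 5784 to 15138 CPM in wild type. The edit changes an amino acid, so this level does not check the labels.

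**Figure D1:**
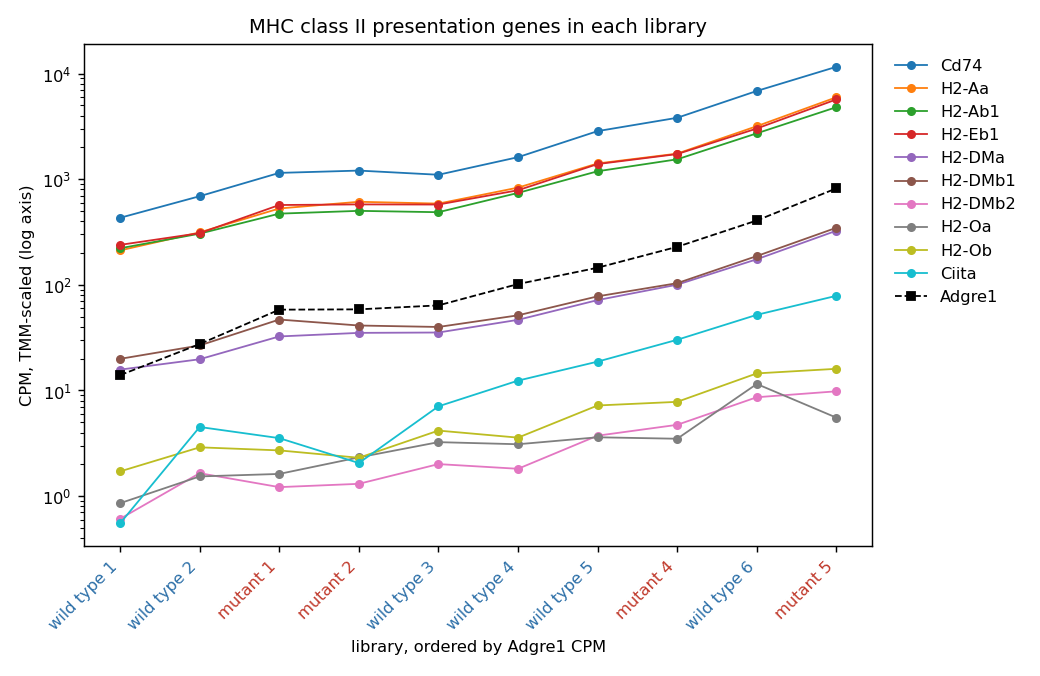
CPM of the 10 genes (coloured lines) and of Adgre1 (dashed line) in each of the 10 libraries, ordered by Adgre1, on a log axis. Mutant library names are in red and wild-type names in blue. All 10 genes are lowest in wild-type replicate 1, and 9 are highest in mutant replicate 5; H2-Oa peaks at 11.5 CPM in wild-type replicate 6, and Ciita dips to 2.06 CPM in mutant replicate 2.

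Of the antigen-presenting chains, H2-Aa, the alpha chain of I-A, was at 528, 611, 1745 and 5959 CPM in mutant replicates 1, 2, 4 and 5. In wild type its lowest, median and highest values were 212, 710 and 3173 CPM. Mutant replicates 1 and 2 lay below the wild-type median and mutant replicate 5 above every wild-type library, so the groups overlapped. The groups of all 10 genes overlapped, and over all genes 1.96% had groups that did not. H2-Ab1, its beta partner, was at 472, 501, 1542 and 4802 CPM in the mutants. Its lowest, median and highest wild-type values were 222, 614 and 2715 CPM. H2-Eb1 was at 569, 577, 1728 and 5687 CPM in the mutants and at 239, 681 and 3016 CPM (lowest, median, highest) in wild type. Mutant replicate 5 was highest and wild-type replicate 1 lowest for each of the 3 chains. Cd74 (chr18:60803849-60812652), which is both a chaperone of class II chains and the receptor of the cytokine MIF, had 1147, 1206, 3811 and 11574 CPM in the mutants. In wild type its lowest, median and highest values were 431, 1358 and 6836 CPM. Libraries fell in the order of the chains, except that wild-type replicate 3 lay just below mutant replicates 1 and 2 and not between them.

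The exchange factor subunits were less abundant. H2-DMa was at 32.5, 35.1, 100 and 325 CPM in the mutants and H2-DMb1 at 46.9, 41.2, 104 and 347 CPM. In wild type the lowest, median and highest values were 15.8, 41.0 and 175 CPM for H2-DMa and 19.9, 45.7 and 187 CPM for H2-DMb1. H2-DMb2, the second beta gene, was at 1.22, 1.31, 4.73 and 9.82 CPM in the mutants and at 0.609, 1.91 and 8.63 CPM (lowest, median, highest) in wild type. All 3 genes had overlapping groups and the same extreme libraries as the chains.

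The inhibitor subunits and the co-activator were scarce. H2-Oa was at 1.62, 2.33, 3.49 and 5.53 CPM in the mutants and at 0.857, 3.17 and 11.5 CPM (lowest, median, highest) in wild type. It was the only 1 of the 10 genes whose highest library was not mutant replicate 5. H2-Ob was at 2.71, 2.31, 7.81 and 16.0 CPM in the mutants and at 1.71, 3.88 and 14.5 CPM in wild type. Ciita was at 3.54, 2.06, 30.2 and 78.7 CPM in the mutants and at 0.552, 9.74 and 52.0 CPM in wild type. Mutant replicates 1 and 2 lay below the wild-type median for these 3 genes, and the groups overlapped. The Ciita level differed 142-fold between libraries, against 9.35-fold for H2-Ob and 28.1-fold for H2-Aa, but the lowest value rests on 29 counts.

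Per transcript length, Cd74 and the chains were the most abundant members. The authors' FPKM, which are scaled for length and depth, had medians over the 10 libraries of 1048 for Cd74, 649 for H2-Aa, 502 for H2-Ab1 and 399 for H2-Eb1. H2-DMb1 followed at 36.1 and H2-DMa at 24.2. H2-Oa was at 2.96, H2-DMb2 at 2.39, Ciita at 1.71 and H2-Ob at 1.43. Within a library, H2-Aa was 1.07 to 1.38 times H2-Ab1 and Cd74 was 1.82 to 2.36 times H2-Ab1 in FPKM. H2-Eb1 was 0.722 to 0.863 times H2-Ab1, although its alpha partner is missing in this strain, and H2-Ea-ps, the defective alpha gene, had 0 counts in all 10 libraries. H2-DMb1 was 1.33 to 1.87 times H2-DMa. These ratios moved far less between libraries than the levels themselves, which differed 17.4-fold or more for each of these 6 genes.

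In the fits of all 10 libraries no class II gene was called between the groups. The test was the quasi-likelihood F test of edgeR on summed counts of all 15123 genes, with a call at a Benjamini-Hochberg adjusted p under 0.05. Without a covariate 0 of the 10 genes were called, where 0.198% of all tested genes were, and 0 had an unadjusted p under 0.05, against 5.9% of all genes. DESeq2 and limma-voom also called 0 of the 10, and called 0.947% and 0.152% of all genes. Fold changes were positive for 9 of 10 genes, as for 51.2% of all genes, and their median was 0.97 on the log2 scale against 0.01 over all genes. For H2-Aa the log2 fold change was 1.02 (SE 0.854, 95% interval -0.87 to 2.92, edgeR adjusted p = 0.959). Cd74 had 0.98 (SE 0.855), H2-Ab1 0.96 (SE 0.820), H2-Eb1 1.02 (SE 0.830), H2-DMa 1.02 (SE 0.799) and H2-DMb1 1.00 (SE 0.739). H2-DMb2 had 0.47 (SE 0.757), H2-Ob 0.34 (SE 0.674), Ciita 0.85 (SE 1.14) and H2-Oa -0.30 (SE 0.638). The median rested on 1 library of each group: it was -0.17 when mutant replicate 5 was left out and 1.67 when wild-type replicate 6 was. In the same fit Adgre1 itself was at 1.20 (SE 0.972, edgeR adjusted p = 0.959).

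With the log2 CPM of Adgre1 as a covariate, the most abundant class II genes had estimates near 0 and narrower intervals. Some other covariates moved them. The log2 difference was -0.04 for Cd74 (SE 0.138, 95% interval -0.34 to 0.27), -0.06 for H2-Aa (SE 0.128, -0.34 to 0.23) and -0.10 for H2-Ab1 (SE 0.145, -0.41 to 0.22). It was -0.03 for H2-Eb1 (SE 0.144, -0.34 to 0.29), -0.02 for H2-DMa (SE 0.139, -0.33 to 0.28) and 0.07 for H2-DMb1 (SE 0.149, -0.26 to 0.40). The edgeR adjusted p of these 6 genes lay between 0.814 and 0.962. The SEs fell from between 0.739 and 0.855 without the covariate to between 0.128 and 0.149 with it. These estimates and intervals hold for Adgre1 as the covariate. The median over the 10 genes was -0.08 with Adgre1, -0.17 with a macrophage score and -0.31 with Ptprc, the pan-leukocyte CD45 gene. It was 0.50 with a dendritic cell score in its place. Each score is the mean centred log2 CPM of its marker list, 15 macrophage and 17 conventional dendritic cell genes. With the macrophage score H2-Aa was at -0.15 (SE 0.121) and Cd74 at -0.12 (SE 0.116), inside the intervals above. With the dendritic cell score H2-Aa was at 0.56 (SE 0.254) and Cd74 at 0.56 (SE 0.232), outside those intervals. With any of these covariates 0 of 10 genes were called, but few of all 15123 genes were. With the macrophage score 40 genes were called higher and 14 lower in mutants. With Ptprc these counts were 41 and 14, and with the dendritic cell score 44 and 26. A p that misses the threshold does not show equal levels.

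The scarce members had larger negative estimates, without passing, and the difference from the abundant genes was not tested. With Adgre1 as covariate H2-Oa had a log2 difference of -0.65 (SE 0.26, 95% interval -1.22 to -0.08, unadjusted p = 0.0287, edgeR adjusted p = 0.335). H2-Ob had -0.48 (SE 0.205, interval -0.93 to -0.04, unadjusted p = 0.0366, adjusted p = 0.359). Ciita had -0.80 (SE 0.36, interval -1.59 to -0.002, unadjusted p = 0.0495, adjusted p = 0.386), and H2-DMb2 had -0.45 (SE 0.259, adjusted p = 0.491). In all 0 of 10 genes were called with the covariate, against 0.337% of all tested genes. An unadjusted p under 0.05 was found for 3 of 10, where 12.9% of all genes had one. H2-Oa was at -0.37 without wild-type replicate 6 and Ciita at -0.50 without mutant replicate 2. With the dendritic cell score as covariate H2-DMb2 was at 0.051, H2-Ob at -0.071, Ciita at -0.19 and H2-Oa at -0.23. Adgre1 was measured in the same libraries, so an error in it enters every adjusted value.

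**Figure D2:**
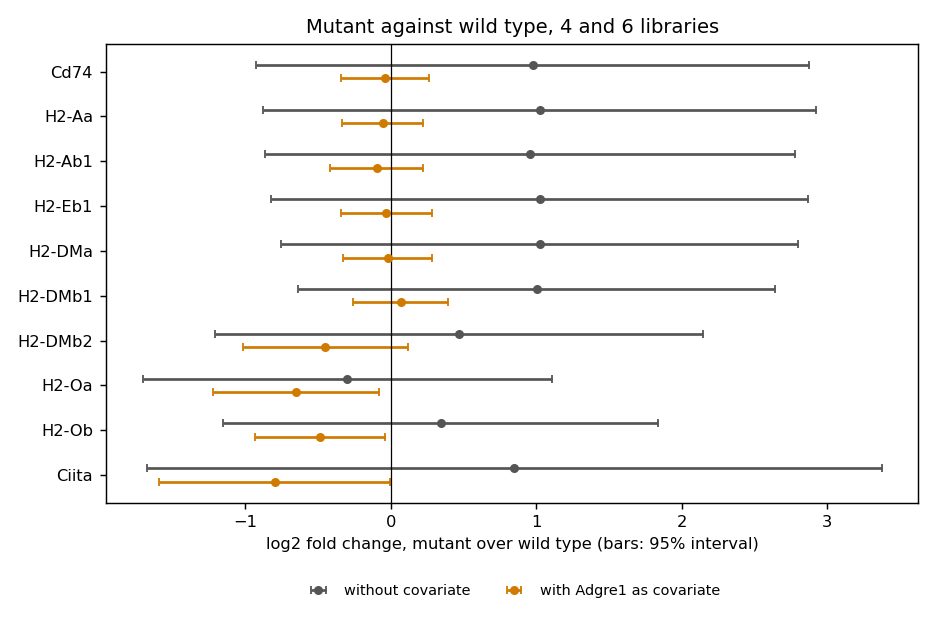
Log2 fold change of each gene, mutant over wild type, without a covariate (grey) and with log2 CPM of Adgre1 as covariate (orange), 4 mutant and 6 wild-type libraries, with 95% intervals from edgeR. The grey intervals all cross 0, and the orange points of Cd74, H2-Aa, H2-Ab1, H2-Eb1, H2-DMa and H2-DMb1 lie between -0.10 and 0.07.

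Within groups, all 10 genes rose with Adgre1. The slope is the change in log2 CPM of a gene per unit of log2 CPM of Adgre1, from the same fit, with genotype held. All 10 slopes were called higher than 0, where 19.7% of the 15122 genes tested were, and the edgeR adjusted p ranged from 5.31e-08 for H2-Aa to 0.000182 for H2-Oa. The slopes were 0.84 for H2-Aa (SE 0.0367), 0.84 for Cd74 (SE 0.0396), 0.81 for H2-Eb1, 0.80 for H2-Ab1, 0.77 for H2-DMa and 0.70 for H2-DMb1. H2-DMb2 had 0.73, H2-Ob 0.64 (SE 0.0576), H2-Oa 0.60 (SE 0.0778) and Ciita 1.21 (SE 0.11). For 9 of the 10 genes the 95% interval lay wholly below 1, as it did for 8 of 15 macrophage markers. Ciita alone had an interval that included 1 (0.97 to 1.45), and 0.456% of all genes had a slope as steep or steeper. A slope below 1 is not particular to class II genes. The median slope over all genes was 0.01, and 2.88% of genes had a slope at least that of H2-Aa. All 10 calls were kept in each fit that left out 1 library.

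**Figure D3:**
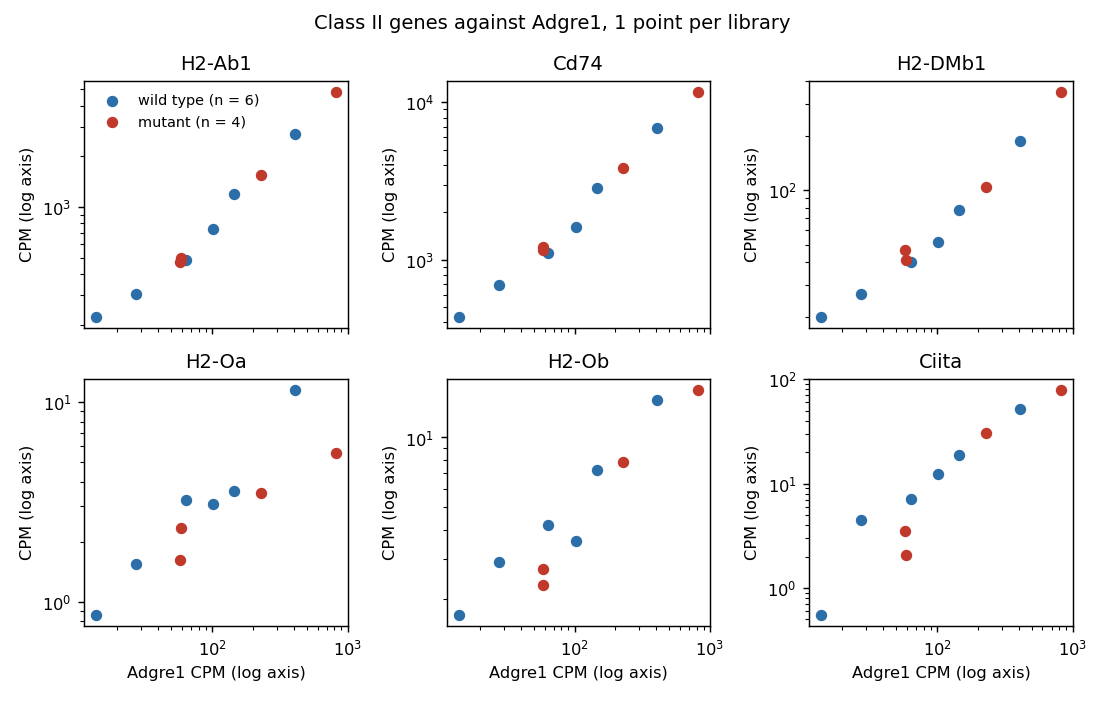
CPM of 6 of the genes against CPM of Adgre1, both on log axes, 1 point per library (4 mutant in red, 6 wild type in blue). H2-Ab1, Cd74 and H2-DMb1 lie on 1 band in both groups. In H2-Oa, H2-Ob and Ciita mutant replicates 1 and 2 (Adgre1 at 58.2 and 58.6 CPM) lie under wild-type replicate 3. That is the 1 wild-type library at like Adgre1 (63.9 CPM).

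No difference in slope between the groups passed the test of the interaction. Of the 10 genes 0 were called in edgeR, and 0 of all 15123 genes were (0.0%), with 853 genes (5.64%) under an unadjusted p of 0.05. In limma-voom 0 of the 10 were called as well, and 0 of all 15123 genes. Tests that call no gene at all say nothing particular about the 10. H2-Ab1 had an interaction of 0.11 (SE 0.08) and Cd74 one of 0.04 (SE 0.0826), in log2 CPM per log2 CPM of Adgre1, mutant minus wild type. H2-Oa had -0.33 (SE 0.133, 95% interval -0.62 to -0.03, adjusted p = 0.848), the only 1 of the 10 with an unadjusted p under 0.05. With 4 mutant libraries, of which 2 have nearly the same Adgre1, these intervals are wide for the scarce genes.

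Ratios between genes of the same library, in FPKM, need no scaling between libraries and groups were compared by exact permutation (two-sided, all 210 ways to place the mutant label). A total of 11 ratios were tested, and 0 passed after Benjamini-Hochberg adjustment over them. The smallest p that this test can give is 1 in 210. After adjustment over 11 ratios, a single ratio at that p would not have passed, even with fully separated groups. The 0 therefore says little about the ratios. The ratio of H2-Ob to H2-DMb1, an inhibitor subunit to its target, was 0.0277, 0.0268, 0.0362 and 0.0222 in mutant replicates 1, 2, 4 and 5. In wild type it ran from 0.0333 to 0.0521. Mutant replicate 4 alone fell within the wild-type range. The mean log2 ratio was -5.17 ± 0.29 in mutants (SD, n = 4) and -4.55 ± 0.249 in wild type (SD, n = 6), a difference of -0.62 (exact permutation p = 0.0143, adjusted p = 0.157). H2-DMb2 to H2-DMb1 differed by -0.46 (exact permutation p = 0.0762, adjusted p = 0.272), with overlapping groups. Cd74 to H2-Ab1 was 2.29, 2.26, 2.32 and 2.26 in the mutants and 1.82 to 2.36 in wild type (log2 difference 0.11, exact permutation p = 0.124, adjusted p = 0.272). H2-Ab1 to Adgre1 ran from 43.3 in wild-type replicate 1, the library with least Adgre1, to 16.0 in mutant replicate 5, the library with most, and the groups differed by -0.32 on the log2 scale (exact permutation p = 0.281, adjusted p = 0.449). The other 7 ratios had log2 differences between -0.27 and 0.09 and adjusted p of 0.272 or more.

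**Figure D4:**
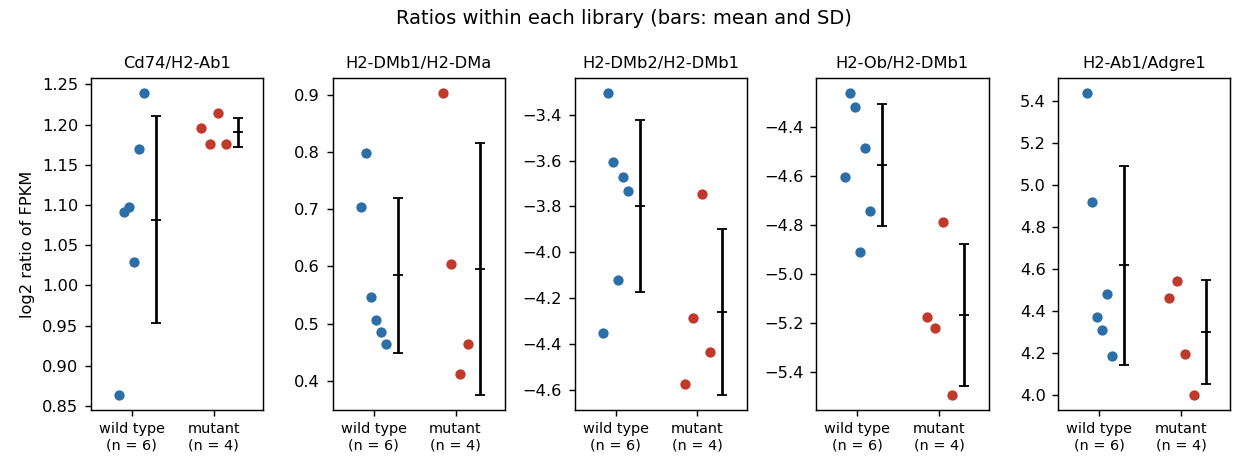
Log2 ratio of FPKM between pairs of genes in each library, 6 wild-type (blue) and 4 mutant (red), with the mean and SD beside the points; each panel has its own axis. For H2-Ob to H2-DMb1 the mutant mean of -5.17 lies below the wild-type mean of -4.55, with 1 mutant library inside the wild-type range.

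Members with several transcripts were examined by transcript, as a description of the authors' estimates. The longer Cd74 transcript carries an additional exon and encodes the p41 form of the invariant chain. It held 22.9% to 30.1% of the Cd74 counts of each wild-type library and 24.7%, 25.5%, 27.0% and 28.7% of those of mutant replicates 1, 2, 4 and 5. The groups overlapped. Ciita is known for alternative promoters, used by different cell types. Over all libraries 99.0% of its 12749 counts were on the 3 transcripts that share the most upstream start, which in the mouse is the promoter of dendritic cells and macrophages. The transcript that starts at 10488178 had 130 counts (1.02%), of which 126 were in wild-type replicate 6, where they were 3.38% of 3723. The transcript that starts at 10489781 had 2 counts. Among the 3 upstream transcripts the estimates switched between libraries. The longest held 107 of 107 counts in mutant replicate 2 and 4 of 3799 in mutant replicate 5, as well as 29 of 29 in wild-type replicate 1 and 10 of 3723 in wild-type replicate 6. These 3 transcripts share nearly all their bases, so the split among them is uncertain. The transcripts of the other starts have the same end and like lengths (5330 and 5167 bases, against 5435 to 5666). How reads were shared among the 5 is not stated, so the 99.0% is an estimate too.

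The steepness of the class II genes on Adgre1 was set beside markers of the cell types that the beads could hold. The median slope was 0.79 for the 10 genes, 0.90 for 15 macrophage markers, 0.79 for 6 markers of all leukocytes, 0.71 for 9 monocyte markers and 0.46 for 17 conventional dendritic cell markers. It was 0.27 for 5 plasmacytoid dendritic cell markers, 0.57 for 9 T cell markers, 0.21 for 10 B cell markers, 0.20 for 6 endothelial markers and -0.11 for 8 tubule markers, beside 0.01 over all genes. All 15 macrophage markers had slopes called above 0, as had 12 of 17 dendritic cell markers and 3 of 10 B cell markers, where 19.7% of all genes had. The B cell share is near that of all genes. Dendritic cell markers other than Kmo averaged between 1.59 CPM for Snx22 and 66.6 CPM for Mgl2. Flt3 and Zbtb46, a receptor and a transcription factor of these cells, were at 1.95 and 1.96 CPM and Itgax (CD11c) at 28.9 CPM. The most abundant B cell marker, Cd79b of the B cell receptor, averaged 6.51 CPM and Ms4a1 (CD20) 0.671 CPM, and Pax5 and Blk were too low to be tested. Slopes within the lists were uneven, with 0.94 for Itgax and 0.97 for Cd22 of B cells. The B cell list summed to 14.7 to 61.5 CPM in mutants and 8.40 to 38.4 CPM in wild type, and the dendritic cell list, of which Kmo, known also from tubules, alone averaged 156 CPM, to 287 to 799 and 263 to 608 CPM. With Adgre1 as covariate 0 markers of these leukocyte lists were called between the groups in edgeR, against 0.337% of all genes. In that fit the median log2 difference was 0.05 for macrophage, 0.07 for all-leukocyte, 0.05 for B cell and 0.24 for T cell markers. It was -0.30 for conventional dendritic cell, -0.32 for monocyte and -0.66 for plasmacytoid dendritic cell markers. Differences between these medians were not tested. What part each cell type has in the class II values was not tested.

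**Figure D5:**
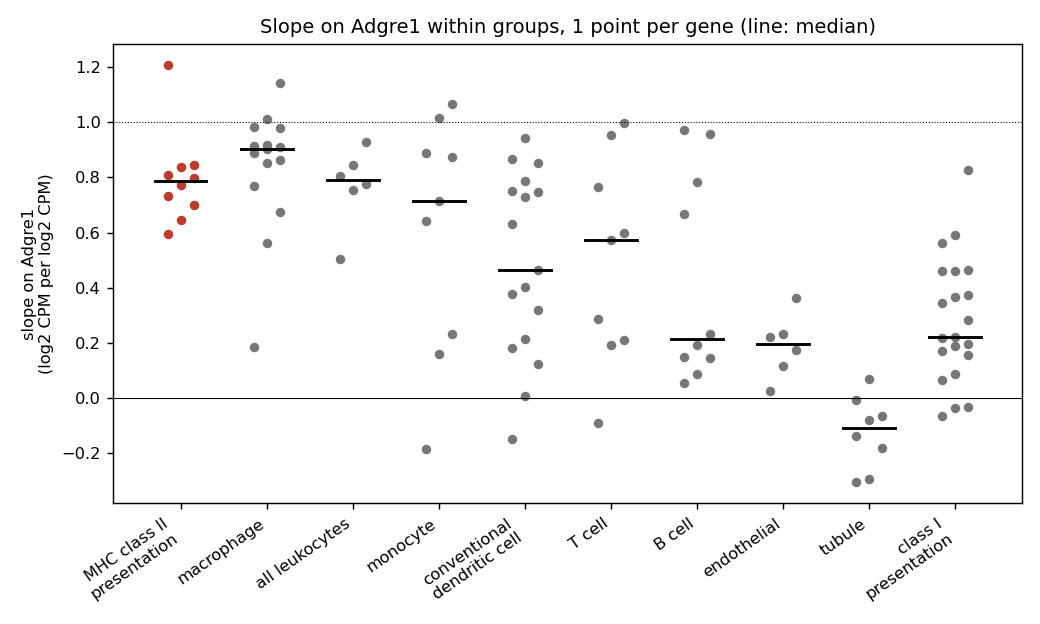
Slope of each gene on Adgre1 (log2 CPM per log2 CPM, genotype held, 10 libraries), for the 10 class II genes in red and for marker lists and class I genes in grey, with the list median as a line and 1 marked by dots. The median was 0.79 for class II, 0.90 for macrophage, 0.79 for all-leukocyte, 0.71 for monocyte and 0.46 for conventional dendritic cell markers.

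The genes whose log2 CPM was most like the mean of H2-Aa, H2-Ab1, H2-Eb1 and Cd74 over the 10 libraries were sought among 12094 others. The 10 nearest were C1qb, Plbd1, Tyrobp, C1qc, Cd300c2, Marcks, C1qa, Ly86, Ctss and C5ar2, with Pearson r of 0.999 for C1qb down to 0.996 for C5ar2. C1qa, C1qb and C1qc encode the subunits of complement C1q, and Ctss encodes cathepsin S, the protease that trims the invariant chain. Adgre1 ranked 29 (r = 0.994). All share the library and its cell content, so the values describe these 10 libraries and carry no test. After a linear fit on Adgre1 was taken out of each gene and of the class II mean, the nearest were Tbkbp1, Ifi27l2a, Ssrp1, Clcf1, C1qb, Chaf1a, Rhog, Arrb2, Cmtm3 and Nrm (r of 0.967 down to 0.935). C1qb was in both lists.

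Other genes of the pathway followed Adgre1 in part. Of 16 tested genes of endosomal processing and class II turnover, 7 rose and 2 fell with Adgre1. Over all genes tested 19.7% rose and 16.2% fell. In the comparison of the groups 0 of the 16 were called, against 0.198% of all genes without and 0.337% with the covariate. Ctss had a slope of 0.83 (SE 0.0447), close to those of the chains, and March1, which marks class II for removal by ubiquitin, had 0.76 (SE 0.0584). Ifi30, the lysosomal thiol reductase of antigen processing, had 0.13, and Lgmn, the endopeptidase legumain, -0.03 (SE 0.0455). Between the groups Ctsd, an aspartic protease of lysosomes, had log2 differences of 0.23 without the covariate and 0.31 with it (edgeR adjusted p = 0.326), and March8 had -0.28 and -0.20.

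Of 23 transcription factors and signalling genes upstream of class II, 14 rose with Adgre1, against 19.7% of all genes. Between the groups 0 were called in either fit, against 0.198% of all genes without and 0.337% with the covariate. The factors that bind the X and Y boxes had slopes between -0.05 and 0.29. Slopes were 0.16 for Rfx5 (SE 0.0417), -0.05 for Rfxank, 0.01 for Rfxap, 0.01 for Nfyb and 0.03 for Nfyc, and of these only Rfx5 was called. Nfya had 0.29 (SE 0.0518), also called. Spi1 and Irf8, transcription factors of myeloid cells, had 0.88 (SE 0.0673) and 0.65 (SE 0.0664). Irf1, which interferon gamma induces and which acts on Ciita, had a slope of -0.08 and log2 differences of 0.70 between the groups without the covariate and 0.79 with it (edgeR adjusted p = 0.953 and 0.473). Ifngr2, a chain of the interferon gamma receptor, had 0.36 and 0.07.

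Genes of co-stimulation and T cell contact, some of which give T cells the second signal beside class II, had 10 tested members. Of these 7 rose with Adgre1, against 19.7% of all genes. In the comparison of the groups 0 were called, against 0.198% of all genes without and 0.337% with the covariate. Cd86 had a slope of 0.87 (SE 0.0434), Cd40 0.54 and Cd80 1.03 (SE 0.164). Between the groups Icam1, an adhesion molecule, had log2 differences of 0.67 and 0.39 without and with the covariate, Tnfsf9 0.67 and 0.54, Cd80 1.27 and 0.28 and Il12b -0.49 and -1.30, all with an adjusted p of 0.511 or more. H2-Eb2, a further beta gene of the locus, averaged 0.659 CPM.

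Class I presentation is carried by nearly all cells. Of 21 class I genes 16 rose with Adgre1, against 19.7% of all genes, with a median slope of 0.22 beside 0.79 for class II, a difference that was not tested. H2-K1, a class I heavy chain, had 0.28 (SE 0.054) and B2m, the shared light chain, 0.38 (SE 0.0499), whereas Nlrc5, the class I counterpart of Ciita, had 0.83 (SE 0.14). Between the groups 0 were called, against 0.198% of all genes without and 0.337% with the covariate. With the covariate the smallest p was that of H2-Q6, a member of the near-identical Qa family whose reads may be shared, at -0.93 (SE 0.23, edgeR adjusted p = 0.154), followed by H2-Q7 at -0.59. Psme2 and Psmb10, parts of the proteasome that supplies class I peptides, had 0.43 and 0.23, and B2m 0.23.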

How the data were processed

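The deposited table gives, for each RefSeq transcript and library, estimated counts and FPKM. StringTie 1.3.4d, HISAT2 2.1.0, Trimmomatic 0.38, DESeq2 and Bowtie2 2.3.4.1 are named with the build mm10 in the submitters' processing notes, without roles. As deposited, the estimated counts are whole and carry no scaling for depth. They matched the authors' FPKM times length within 1.5 reads or 1% for 100% of values of at least 20 counts, so both columns hold 1 estimate. The labels do not say whether each library is 1 mouse. The p-values therefore judge group differences against the spread between these libraries, which may not be that between mice.

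Counts were summed per symbol, filtered with filterByExpr, scaled by TMM and fitted with edgeR 4.0.16 (R 4.3.3; quasi-likelihood F test, robust), with genotype alone, with log2 CPM (prior count 2) of Adgre1 added, and with their interaction. P-values were adjusted by Benjamini-Hochberg over all genes tested. Each SE is the fold change over the root of its F statistic. The script was tested on simulated data. Alternatives used limma 3.58.1, DESeq2 1.42.0, other filters, scalings and covariates, and left out libraries. The genes, lists and the rule for named genes (all 10 members, the 3 smallest p of each list in either fit, and the 10 most alike by correlation) were chosen with earlier results of these data known; further genes of a list (among them Ctss, Rfx5, Cd86, H2-K1 and Flt3) were named after their values were seen. No 2 libraries of a group were duplicates (smallest chi-square per gene 72.2). Figures used matplotlib 3.10.9.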

Additional observations from a re-analysis of the deposited data

Results flagged for a closer look

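Of 42 sets of values looked at, 1 for each gene or ratio in each group, 5 had a library far from the others of its group. The rule is set to pick about 1 in 20 sets of independent, normally distributed values, and these CPM are skewed and correlated, so the share picked by chance here is not known. Of these, 4 were wild-type replicate 6, the wild-type library with the most Adgre1, and were high: H2-DMa at 175 CPM, H2-DMb1 at 187 CPM, H2-Oa at 11.5 CPM and Ciita at 52.0 CPM. The gap to the next library was 0.648, 0.654, 0.742 and 0.646 of the range of the 6 wild-type libraries. The Ciita to H2-Ab1 ratio was low in wild-type replicate 1, the library with the least Adgre1, at 0.000507 in FPKM, with Ciita resting on 29 counts there.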

How the results depend on the processing

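The count of called genes was 0 of 10 between the groups in each fit that left out 1 library, with and without Adgre1 as covariate. It was also 0 in the interaction. Few of all 14973 to 15338 genes were called in these fits. Without the covariate 14 to 23 were called higher and 0 to 3 lower. With Adgre1 20 to 55 were called higher and 3 to 19 lower, and in the interaction at most 1 gene was called. All 10 slopes kept their call (10 to 10), where 1956 to 3101 genes had slopes called above 0. The replicate numbers 1, 2, 4 and 5 occur in both groups. Deviations of same-numbered libraries correlated at 0.426, 0.278, 0.0174 and 0.445 over 15123 genes. Of these, 2 of 4 mutant and 1 of 4 wild-type libraries correlated best with their own number. The numbers are therefore not taken as pairs. They do follow Adgre1, which rose with the number in both groups. In mutant replicates 1, 2, 4 and 5 it was at 58.2, 58.6, 229 and 819 CPM. In wild-type replicates 1 to 6 it was at 14.0, 27.5, 63.9, 102, 145 and 406 CPM. At each shared number the mutant library had the higher value. With a replicate block over these 8 libraries and no Adgre1, 5 genes were called, where 1.46% of all genes were. They were H2-Aa (1.35), H2-Ab1 (1.22), H2-Eb1 (1.33), H2-DMa (1.29) and Cd74 (1.37). Without the block 0 of the 10 were called, against 0.141% of all genes. With the block and Adgre1 0 were called, but so were 0.0% of all 14861 genes, so that 0 says nothing about the members. The SEs there ran from 0.412 for H2-DMb1 to 1.3 for Ciita, against 0.234 and 0.591 with the block alone. The cause of the 5 calls was not tested.

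Without 1 library the median log2 fold change ran from -0.17 to 1.67, and with Adgre1 from -0.12 to -0.02. With the macrophage score as covariate that median was -0.17, with Ptprc, the pan-leukocyte CD45 gene, -0.31, and with the dendritic cell score 0.50.

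Directions changed as follows, all uncalled. Without a covariate H2-Oa was 0.57 and 0.51 in 8 libraries with and without the block and 0.007 without the highest-Adgre1 library of each group, a setting chosen after seeing the data, as was leaving out the lowest. With Adgre1 and the block H2-Aa was 0.20, H2-Ab1 0.037, H2-Eb1 0.25, H2-DMa 0.08, H2-DMb1 -0.22, H2-Oa 0.15 and Cd74 0.23. With the dendritic cell score H2-Aa was 0.56, H2-Ab1 0.47, H2-Eb1 0.54, H2-DMa 0.53, H2-DMb2 0.051 and Cd74 0.56. H2-DMb1 was -0.017 with the macrophage score and -0.14 with Ptprc. H2-DMa was 0.001 in limma-voom, 0.006 without the highest and 0.042 without the lowest libraries, Cd74 0.016 without the highest and H2-Aa 0.005 without the lowest. Interactions were -0.013 for H2-Aa and -0.019 for Cd74 without the lowest, and -0.008 for H2-DMb2 in limma-voom.

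Without 1 library the log2 fold changes without covariate ran from -0.18 to 1.72 (H2-Aa), -0.17 to 1.64 (H2-Ab1), -0.14 to 1.70 (H2-Eb1), -0.12 to 1.70 (H2-DMa), -0.072 to 1.64 (H2-DMb1), -0.35 to 1.12 (H2-DMb2), -0.68 to 0.39 (H2-Oa), -0.41 to 0.88 (H2-Ob), -0.13 to 1.73 (Cd74) and -0.41 to 1.72 (Ciita). With Adgre1 they ran from -0.10 to 0.005 (H2-Aa), -0.089 to 0.008 (H2-Eb1), -0.089 to 0.044 (H2-DMa), -0.012 to 0.15 (H2-DMb1) and -0.097 to 0.025 (Cd74). Interactions ran from -0.002 to 0.14 (H2-Eb1), -0.033 to 0.21 (H2-DMb1) and -0.012 to 0.11 (Cd74). Log2 ratio differences ran from -0.094 to 0.067 (H2-DMb1 to H2-DMa), -0.505 to 0.011 (H2-Oa to H2-Ob) and -0.70 to 0.20 (Ciita to H2-Ab1). Here 0 ratios passed, but with 1 library fewer a single ratio could not have passed even with fully separated groups. H2-DMb2, H2-Oa, H2-Ob and Ciita rest on as few as 32, 45, 90 and 29 counts in a library, which limits their precision.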
